A study of Mus musculus with 6 samples.

Results

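Chemokine ligands were examined on 6 Agilent whole-genome mouse arrays, as every non-control probe whose array annotation named a Ccl, Cxcl, Cx3cl1 or Xcl1 gene, together with Pf4 and Ppbp, which are CXC chemokines under older names. The choice gave 47 probes for 37 genes, of 55681 probes and 36499 gene names on the array. They comprised 20 CC genes, 15 CXC genes, Cx3cl1 and Xcl1. The study treated primary myoblasts, the precursor cells of muscle fibres, with TGFb for 4 days (3 arrays) and set them against untreated myoblasts (3 arrays). Both groups came from skeletal muscle of male C57BL/6 mice aged 3 months, were sorted by flow cytometry, and were grown in DMEM with fetal bovine serum, glutamine and antibiotics, so that serum was present in both. The TGFb isoform and dose are not stated in the sources used here. Whether the sorted cultures were free of the other cells of muscle was not tested.

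Chemokines are small secreted proteins that steer the movement of cells by binding G protein-coupled receptors, and are grouped as CC, CXC, CX3C and XC by the spacing of their first cysteines. In muscle, they are known for drawing neutrophils and then monocytes into injured tissue, and Cxcl12 also guides the migration of muscle precursors in the embryo. TGFb is a secreted growth factor with a central part in fibrosis and is known to act on chemokine production by many cell types.

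Levels are given as log2 processed intensity relative to the 75th percentile of all spots on the same array, so that 0 is the 75th percentile and 1 unit is a doubling. They are compared only within a probe. Differences are TGFb minus untreated, from a limma fit across 21999 genes. A gene was said to have risen or fallen where its Benjamini-Hochberg adjusted p-value, taken over all of them, was under 0.05. Per the file headers, scanning took 2 days. Day 1 held TGFb replicate 1 with untreated replicates 1 and 2, and day 2 held the other two TGFb arrays with untreated replicate 3. Arrays resembled those of the same day more than those of the same treatment: TGFb replicate 1 correlated at 0.929 and 0.919 with TGFb replicates 2 and 3, but at 0.974 and 0.977 with untreated replicates 1 and 2. Differences were therefore fitted with group alone (the group-only fit) and with scan day added as a term (the scan-day fit). For some genes the value of only 1 fit is given. A fold change without a named fit is from the group-only fit. Untreated replicates 1 and 2 carry the same number in the names of their scanner files and correlated at 0.996, against 0.982 for TGFb replicates 2 and 3, also scanned on 1 day. Whether they were separate cultures was not tested. If they were not, the SEs are too small, and values with their mean counted as 1 sample are given below. The p-values measure only the spread between these arrays. The 75th percentile of intensity was 879 to 1578, and each array had 50.9% to 55.8% of its probes well above background. The TGFb response gene Ccn2, which encodes a matrix-associated growth factor, was higher in TGFb-treated cells by 3.06 ± 0.24 (SE, adjusted p = 0.0113).

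Of the 37 chemokine ligand genes, 24 had a probe well above background on at least 1 array, by the scanner software's own flag. Detected, above background and on an array all refer to this flag. A signal without it is not thereby below background. For 16 of them this held on all 6 arrays, namely Ccl2, Ccl5, Ccl7, Ccl17, Ccl19, Ccl25, Ccl27a, Ccl28, Cx3cl1, Cxcl1, Cxcl5, Cxcl10, Cxcl11, Cxcl12, Cxcl13 and Cxcl16. A further 3 were seen in 1 group only or mainly. Cxcl14 was well above background on 3 TGFb arrays and 0 untreated arrays, Pf4 on 0 TGFb arrays and 3 untreated arrays, and Ccl11 on 1 TGFb array and 3 untreated arrays. These 19 genes met the requirement of 3 arrays and were tested. Because Cxcl14, Pf4 and Ccl11 met it through the group in which they were high, counts over the 19 are a description only.

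The other 18 genes were not tested. Ccl6, Ccl8, Ccl9, Cxcl9 and Cxcl15 were well above background on 1 untreated array and 0 TGFb arrays. The remaining 13, Ccl1, Ccl3, Ccl4, Ccl12, Ccl20, Ccl22, Ccl24, Ccl26, Cxcl2, Cxcl3, Cxcl17, Ppbp and Xcl1, were not well above background on any array. Their levels lay between -8.06 and -5.88, while the lowest signal called well above background lay between -5.75 and -5.18 depending on the array. Genes that macrophages and T cells are known to secrete, such as Ccl3, Ccl4 and Xcl1, are in this set. By probes, detection was like that of the whole array: 36.2% of the chemokine ligand probes were well above background on no array, against 36.5% of all probes, and 44.7% were on all 6, against 44.3%.

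**Figure D1:**
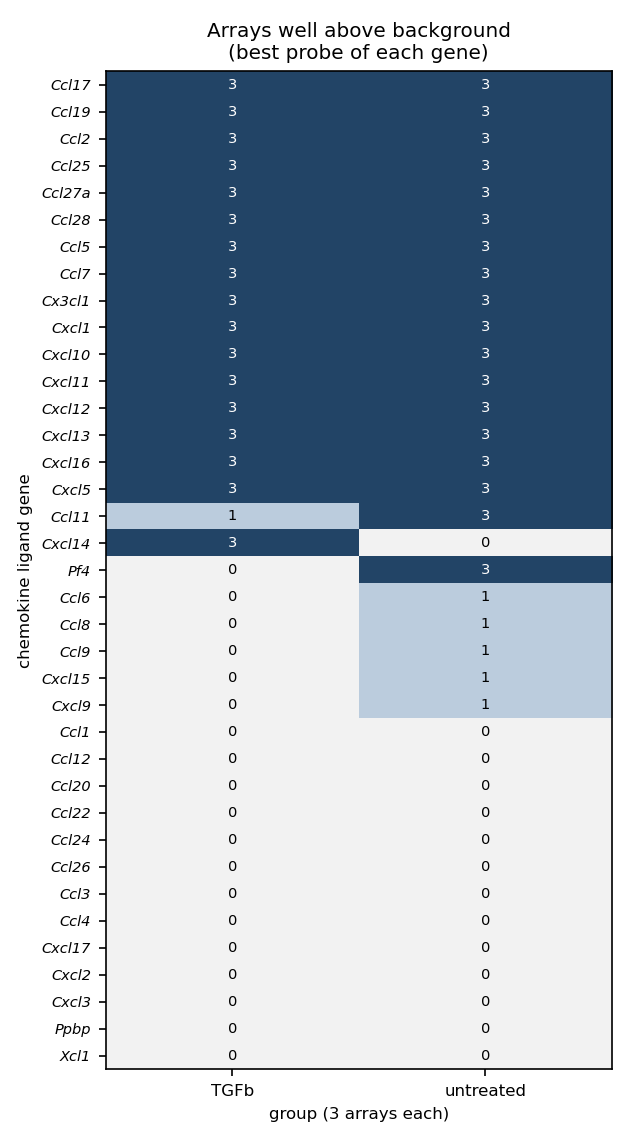
Number of arrays (of 3 TGFb and of 3 untreated) on which the best probe of each of the 37 chemokine ligand genes was well above background. Cxcl14 was detected only with TGFb and Pf4 only without it, and 13 genes were detected on 0 arrays.

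Among the 19 genes tested, Cxcl16 and Cxcl14 rose with TGFb in the group-only fit and Cxcl5 and Pf4 fell, while 15 did not pass. In bulk RNA, fewer cells expressing a gene and less RNA per cell cannot be told apart. Over all genes, 0.682% rose, 0.677% fell and 1.36% did either. In the scan-day fit, Ccl17, Cx3cl1 and Cxcl12 also rose and Cxcl1, Ccl5 and Ccl11 also fell, which made 5 up and 5 down, with 9 not passing. There, 4.59% of all genes rose, 5.58% fell and 10.2% did either. Of the 16 genes detected on all 6 arrays, 1 rose and 1 fell in the group-only fit, and 4 rose and 3 fell in the scan-day fit. The groups did not overlap for 5 genes that were higher and 6 that were lower with TGFb, which is 26.3% and 31.6% of the 19, against 8.45% and 9.5% of all genes tested. The median difference was 0.19 (0.05 over all genes) and the median absolute difference 0.94 (0.45 over all genes), and the sign was the same within both scan days for 17 of the 19 (89.5%, against 67.9% of all genes). In the scan-day fit 1 CC gene rose and 2 fell, and 3 CXC genes rose and 3 fell, so that neither family moved as a whole.

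The calls in the group-only fit depended on single arrays. None of the 4 genes passed without TGFb replicate 2, without TGFb replicate 3, without untreated replicate 1 or without untreated replicate 2. The same held with untreated replicates 1 and 2 counted as 1 sample, when limma called 0 of all genes, with 1453 genes at an unadjusted p under 0.05. Without TGFb replicate 1, Cxcl5 and Pf4 passed, and without untreated replicate 3, Cxcl5, Pf4 and Cxcl16 did. Cxcl5, Pf4, Cxcl16 and Ccl17 passed in the scan-day fit whichever array was left out, and also with untreated replicates 1 and 2 counted as 1 sample. Without TGFb replicate 1 or untreated replicate 3, however, 1 scan day held a single group. The scan-day difference then came from the other day alone. With slide as a block in place of scan day, Cxcl5, Pf4, Cxcl16 and Ccl17 passed together with Cxcl14. TGFb replicate 3 and untreated replicate 1 were each alone on a slide and did not inform that contrast. It rests on TGFb replicate 1 beside untreated replicate 2, and TGFb replicate 2 beside untreated replicate 3.

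**Figure D2:**
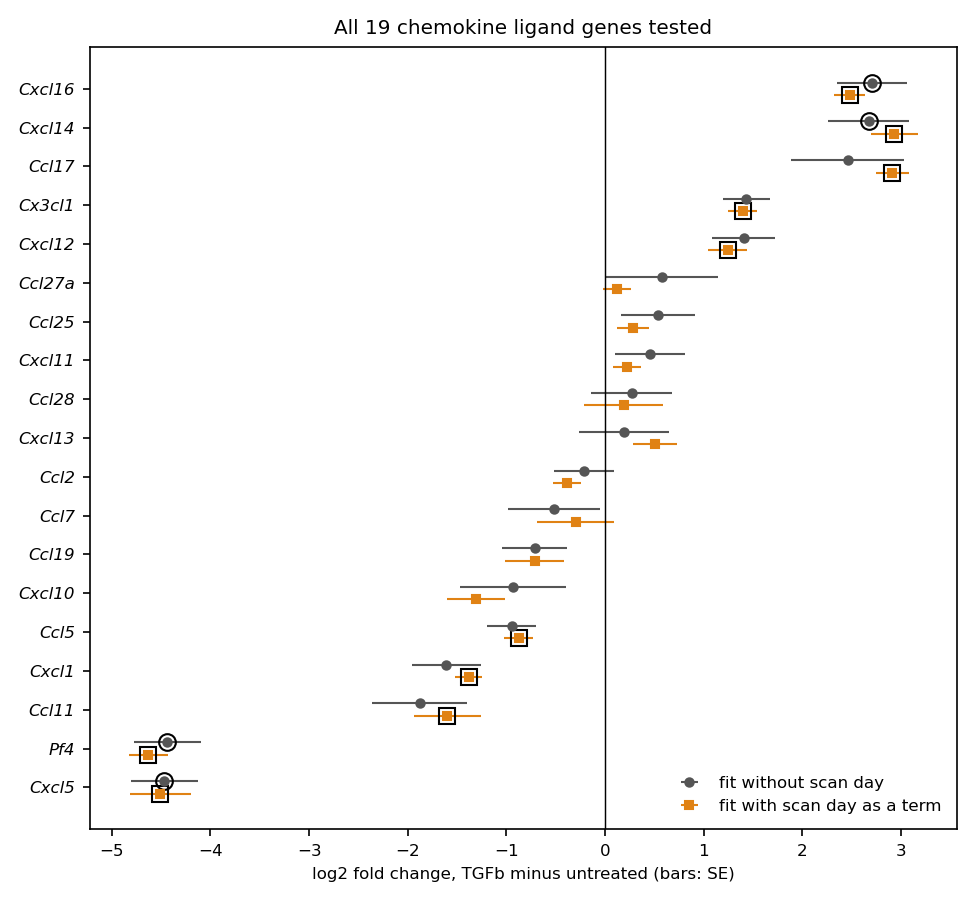
Log2 fold change (TGFb minus untreated, bars show SE) of the 19 chemokine ligand genes tested, from the group-only fit (grey circles) and the scan-day fit (orange squares). Outlined symbols passed an adjusted p of 0.05: 4 genes in the group-only fit and 10 in the scan-day fit. The values of Cxcl14 and Pf4 are fitted to levels that were not well above background in 1 group.

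The CXCR2 ligands, which attract neutrophils and carry a Glu-Leu-Arg motif before the first cysteine, were Cxcl1, Cxcl2, Cxcl3, Cxcl5, Cxcl15 and Ppbp, of which Cxcl5 and Cxcl1 were tested. Cxcl5 fell in both fits. Its levels were -4.63, -3.90 and -3.83 in TGFb replicates 1 to 3, against 0.44, 0.59 and 0.01 in untreated replicates 1 to 3. All 3 TGFb arrays thus lay more than 3 units below every untreated array, although the probe was well above background on all 6. The fold change was -4.47 ± 0.34 (SE, adjusted p = 0.0113), and -4.51 ± 0.31 (adjusted p = 0.00246) in the scan-day fit. Within day 1 the difference was -5.15, and within day 2 it was -3.87. The size depended on how dim spots are treated. Without scan day it was -3.34 after normexp background correction and -3.44 in the authors' deposited table, and Cxcl5 passed in both. The probe lies on chromosome 5 at 91190490 to 91190549 in mm9, the build of the array's annotation. Exon and UTR annotation on that build was not used here.

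Cxcl1, the mouse chemokine KC, had levels of -0.63, -1.40 and -1.25 in TGFb-treated cells and 0.78, 0.71 and 0.06 in untreated cells, with no overlap. It fell by 1.38 ± 0.14 (SE, adjusted p = 0.00584) in the scan-day fit. In the group-only fit the difference was -1.61 ± 0.35 and did not pass (adjusted p = 0.121). The scan-day call was lost without TGFb replicate 1 or untreated replicate 3. Within both days the difference was -1.38. Cxcl2, Cxcl3 and Ppbp were well above background on no array, and Cxcl15 was on untreated replicate 2 alone.

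Pf4, platelet factor 4, is stored in platelet granules and binds a form of CXCR3 in human cells. Its levels were -7.68, -7.50 and -7.00 in TGFb replicates 1 to 3, not well above background on any. In untreated replicates 1 to 3 they were -3.22, -3.18 and -2.47, well above background on each. From processed signal, Pf4 was thus at least 4.99-fold lower with TGFb. The fitted difference, which rests on TGFb levels not well above background, was -4.44 (adjusted p = 0.0113), and -4.63 in the scan-day fit (adjusted p = 0.0015). The bound sets the untreated mean against the lowest signal called well above background on each TGFb array. The fitted difference depends on how dim spots are treated: it was -4.44 from processed signal, -1.60 after normexp background correction and -1.85 in the authors' deposited table. The differences after normexp correction and in the authors' table are smaller than the bound, which therefore applies to processed signal only. Of 6 platelet and megakaryocyte markers, Gp9, Gp1ba and Treml1 were well above background on no array, and the summed linear level of the 6 was 0.199 to 0.255 on TGFb arrays, against 0.172 to 0.215 on untreated arrays, in units of the 75th percentile. Itga2b and Gp1bb, the 2 that were tested, were on all 6 arrays and did not pass in either fit. Their part in the Pf4 difference was otherwise not tested.

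Cxcl5, Ppbp, Pf4, Cxcl3, Cxcl15, Cxcl1 and Cxcl2 lie in this order within 144 kb of mouse chromosome 5 (91190490 to 91334593, mm9). All 3 members of this cluster that were tested, Cxcl5, Pf4 and Cxcl1, fell in the scan-day fit, and Cxcl5 and Pf4 also fell in the group-only fit. Over all genes tested, 5.58% fell in the scan-day fit and 0.677% in the group-only fit. Pf4 met the detection requirement through the untreated group alone, in which it was high, so these counts are a description only. Of 6 other tested genes in the cluster or within 250 kb of it, 0 passed in limma's group-only fit (3 had an unadjusted p under 0.05), and 2 rose in the scan-day fit. One of these was Ereg, which encodes the growth factor epiregulin and was higher by 1.05 (adjusted p = 0.02) in the scan-day fit. No flanking gene that was tested fell in either fit.

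Promoter sequences of Cxcl1, Cxcl2, Cxcl3 and Pf4 from the cluster are shown because NF-kB, a transcription factor of inflammation, is known to drive Cxcl1 and its relatives from a site close to the start. They are the 250 bases before each RefSeq gene start (GRCm38.p6, plus strand, 5′ to 3′), and capitals mark matches to the NF-kB motif GGAATTTCC or to the SMAD box CAGACA, a binding sequence of the TGFb-activated SMAD proteins. Ccl17, from the chromosome 8 cluster described below, follows the 4 genes of chromosome 5. Cxcl5 was not searched here.
Cxcl1 (chr5:90890995-90891244): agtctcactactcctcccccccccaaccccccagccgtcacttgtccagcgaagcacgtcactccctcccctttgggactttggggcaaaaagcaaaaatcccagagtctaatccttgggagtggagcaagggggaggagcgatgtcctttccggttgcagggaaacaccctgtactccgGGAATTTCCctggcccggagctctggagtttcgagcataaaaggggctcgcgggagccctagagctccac
Cxcl2 (chr5:90903649-90903898): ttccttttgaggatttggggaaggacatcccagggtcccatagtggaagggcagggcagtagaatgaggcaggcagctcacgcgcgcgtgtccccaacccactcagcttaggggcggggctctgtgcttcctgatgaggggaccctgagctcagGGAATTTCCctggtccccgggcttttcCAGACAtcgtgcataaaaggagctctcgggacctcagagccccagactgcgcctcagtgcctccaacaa
Cxcl3 (chr5:90785851-90786100): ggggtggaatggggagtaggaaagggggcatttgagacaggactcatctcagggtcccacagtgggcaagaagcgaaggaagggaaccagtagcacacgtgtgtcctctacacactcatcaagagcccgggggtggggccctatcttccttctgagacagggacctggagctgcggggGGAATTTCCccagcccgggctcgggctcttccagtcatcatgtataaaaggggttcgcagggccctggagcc
Pf4 (chr5:90772185-90772434): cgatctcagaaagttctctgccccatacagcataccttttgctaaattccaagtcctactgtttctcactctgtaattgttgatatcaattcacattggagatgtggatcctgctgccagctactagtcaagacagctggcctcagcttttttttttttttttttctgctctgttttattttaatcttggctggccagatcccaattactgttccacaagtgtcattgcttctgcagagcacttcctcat
Ccl17 (chr8:94810203-94810452): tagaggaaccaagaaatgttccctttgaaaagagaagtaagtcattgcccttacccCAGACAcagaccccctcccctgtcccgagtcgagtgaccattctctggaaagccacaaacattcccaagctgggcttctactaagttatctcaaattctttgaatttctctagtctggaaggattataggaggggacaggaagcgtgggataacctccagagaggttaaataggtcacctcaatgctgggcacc
Cxcl1, Cxcl2 and Cxcl3 each held 1 NF-kB match, which ended 61, 87 and 63 bases before the start. Pf4, which fell in both fits, held neither motif in this window. Searched on both strands, GGAATTTCC was found in 4 of the 26 chemokine ligand genes with a window (Cxcl1, Cxcl2, Cxcl3 and Cxcl10) and in 94 of 32851 windows of all genes (0.286%). CAGACA was found in 6 of the 26, among them Ccl17 and Cxcl2, and in 17.1% of all windows. The AP-1 motif TGANTCA was found in 4 of the 26 (Ccl9, Ccl27a, Cxcl10 and Ppbp) and in 6.75% of all windows, and the interferon-response motif GAAANNGAA in 6 (Ccl1, Ccl3, Ccl19, Cxcl9, Cxcl10 and Cxcl14) and in 7.13%. These motifs were chosen after the values were seen. A match describes the sequence and shows no binding: of the 4 genes with the NF-kB match, Cxcl1 fell in the scan-day fit, Cxcl10 did not pass, and Cxcl2 and Cxcl3 were not detected.

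**Figure D3:**
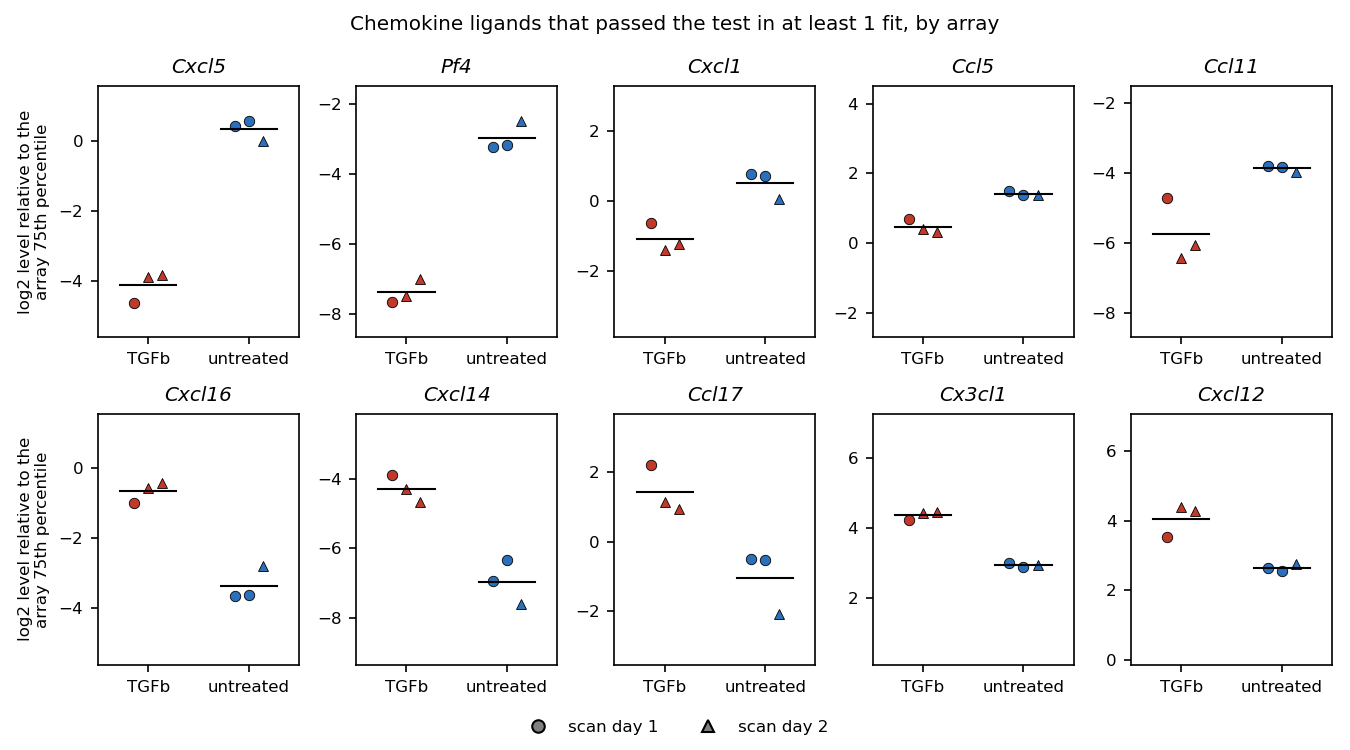
Log2 level relative to the array's 75th percentile for the 10 chemokine ligands that passed in at least 1 fit, with TGFb arrays on the left (red) and untreated arrays on the right (blue) of each panel. Circles were scanned on day 1, triangles on day 2, and bars are group means. The groups did not overlap in any of the 10 panels, and levels are not comparable between panels.

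The CXCR3 ligands Cxcl9, Cxcl10 and Cxcl11 are induced by interferon and attract activated T cells. None of them passed in either fit. Cxcl10 had levels of 0.16, 1.31 and 0.52 with TGFb and 1.07, 1.11 and 2.60 in untreated cells. It overlapped between groups when the days were pooled, but lay lower with TGFb within each day, by 0.94 on day 1 and by 1.68 on day 2. Its fold change was -0.93 ± 0.54 (SE, adjusted p = 0.608), and -1.31 ± 0.29 (adjusted p = 0.0531) in the scan-day fit. Cxcl11 is listed in RefSeq as a transcribed pseudogene of the mouse reference genome, which comes from C57BL/6. Its 2 probes gave 0.46 and -0.29, and 0.23 and 0.77 in the scan-day fit. The brighter probe shares a run of 20 bases with 7 probes of other genes, so its signal cannot be assigned to Cxcl11 alone. Cxcl9 was well above background on 1 untreated array by 1 of its 2 probes.

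Other genes of the interferon response had a median difference of -0.47, against 0.05 for all genes. Of 11 tested, 0 passed in limma's group-only fit (3 had an unadjusted p under 0.05), while Irf7, a transcription factor of that response, Ifit3 and Gbp2 fell in the scan-day fit. There, 5.58% of all genes tested fell. Ifit3, an antiviral protein, had levels of -0.92, -0.88 and -1.09 with TGFb and 0.07, 0.23 and 0.30 in untreated cells, and its fold change was -1.17 ± 0.15 (SE, adjusted p = 0.0125) in the scan-day fit.

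Of the remaining CXC ligands, Cxcl12, Cxcl13, Cxcl14 and Cxcl16 were tested, and all but Cxcl13 rose in at least 1 fit. Cxcl16 is 1 of 2 chemokines made as membrane-bound proteins. It is shed to attract Cxcr6-bearing cells, and it also acts as a scavenger receptor. Its levels were -1.0, -0.57 and -0.41 in TGFb-treated cells, against -3.66, -3.64 and -2.80 in untreated cells. The lowest TGFb array was thus more than 1 unit above the highest untreated array. Cxcl16 rose by 2.71 ± 0.35 (SE, adjusted p = 0.0279), and by 2.48 ± 0.16 (adjusted p = 0.00213) in the scan-day fit. The difference was 2.65 on day 1 and 2.31 on day 2. Without scan day it was 2.08 after normexp background correction and 1.87 in the authors' deposited table, and Cxcl16 passed in both. Its probe lies on chromosome 11 at 70267780 to 70267839 (mm9), apart from the other chemokine genes of that chromosome.

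Cx3cl1, fractalkine, is the other membrane-bound chemokine and binds Cx3cr1 on monocytes, microglia and some lymphocytes. Its levels were 4.23, 4.43 and 4.48 with TGFb and 3.01, 2.88 and 2.95 in untreated cells. The arrays of each group lay close together, and the groups were more than 1 unit apart. Cx3cl1 rose by 1.40 ± 0.14 (SE, adjusted p = 0.0064) in the scan-day fit, and narrowly missed the threshold in the group-only fit (1.43 ± 0.24, adjusted p = 0.0567). The scan-day call was lost without untreated replicate 2 or 3. Both membrane-bound chemokines were thus higher on every TGFb array than on any untreated array.

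Cxcl12, stromal cell-derived factor, is the ligand of Cxcr4 and keeps stem and precursor cells in their niches. Its brighter probe had levels of 3.52, 4.38 and 4.29 with TGFb and 2.65, 2.55 and 2.76 in untreated cells, with no overlap. It rose by 1.24 ± 0.20 (SE, adjusted p = 0.0207) in the scan-day fit and did not pass in the group-only fit (1.41 ± 0.32, adjusted p = 0.137). The second probe starts at 117125026 on chromosome 6 (mm9), where the brighter one starts at 117131227, and had levels of 1.78, 3.09 and 3.12 with TGFb and 0.89, 0.89 and 1.98 in untreated cells. Tested on its own, it rose by 1.00 ± 0.15 (adjusted p = 0.0199) in the scan-day fit. The call of the brighter probe was lost without TGFb replicate 2 and without each of the 3 untreated replicates in turn.

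Cxcl14 is known for attracting monocytes and dendritic cells and for its high level in skin. It was well above background only on TGFb arrays. Its levels were -3.89, -4.31 and -4.66 there, against -6.94, -6.34 and -7.59 on untreated arrays. From processed signal, Cxcl14 was thus at least 2.42-fold higher with TGFb. The fitted difference, which rests on untreated levels not well above background, was 2.67 (adjusted p = 0.0466), and 2.93 in the scan-day fit (adjusted p = 0.00355). The call in the group-only fit is close to the threshold. It was lost when the percentile was taken over detected probes (adjusted p = 0.101), with no filter on dim probes (adjusted p = 0.0609) and after normexp background correction, where the difference was 0.60 (adjusted p = 0.477) in place of 2.67. In the authors' deposited table Cxcl14 did pass without scan day, at a smaller difference of 0.67 (adjusted p = 0.00678). The differences after normexp correction and in the authors' table are smaller than the bound, which therefore applies to processed signal only. The call in the scan-day fit was lost without untreated replicate 3 (adjusted p = 0.0598). Cxcl13, which guides B cells, had levels of -2.63, -4.12 and -3.67 with TGFb and -3.53, -3.38 and -4.09 in untreated cells, which overlapped, and its fold change was 0.19 ± 0.46 (SE, adjusted p = 0.881).

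The CCR4 ligands Ccl17 and Ccl22 attract regulatory and type 2 helper T cells, and Ccl17 alone was detected. Its levels were 2.20, 1.13 and 0.94 with TGFb and -0.50, -0.52 and -2.08 in untreated cells. The groups did not overlap, and in both groups the day 2 arrays lay more than 1 unit below those of day 1. Ccl17 rose by 2.91 ± 0.16 (SE, adjusted p = 0.00189) in the scan-day fit, but did not pass in the group-only fit (2.46 ± 0.58, adjusted p = 0.146). The difference was 2.71 on day 1 and 3.12 on day 2. Ccl22, Cx3cl1 and Ccl17 are neighbours on chromosome 8, within 61.1 kb (97274709 to 97335829, mm9). Both members that were tested rose in the scan-day fit, as did 4.59% of all genes tested. Of 18 other tested genes in this cluster or within 250 kb of it, 3 rose and 2 fell in that fit, and 1 rose in the group-only fit. That gene was Adgrg3, an adhesion G protein-coupled receptor, at 2.21 (adjusted p = 0.0313). Genes that rose in this region were thus not chemokines alone.

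The CCR2 ligands Ccl2 and Ccl7, which draw monocytes from the blood, were on all 6 arrays and did not pass in either fit. Ccl2 had levels of 2.14, 2.54 and 2.55 with TGFb and 2.37, 2.45 and 3.04 in untreated cells, which overlapped. Its probe is printed 10 times on each array, and the SD between these spots was 0.037 to 0.077, well below the spread between arrays. The fold change was -0.21 ± 0.31 (SE, adjusted p = 0.812), with a 95% confidence interval of -0.96 to 0.53. In the scan-day fit it was -0.38 ± 0.14 (adjusted p = 0.16, interval -0.74 to -0.03). Ccl7 had levels of 1.06, 0.72 and -0.56 with TGFb and 1.01, 1.07 and 0.69 in untreated cells. Its fold change was -0.52 ± 0.47 (SE, adjusted p = 0.754), with TGFb replicate 3 lying apart from the other arrays. Ccl8 was well above background on 1 untreated array and Ccl12 on no array.

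Ccl5 (RANTES) attracts T cells and monocytes. Its levels were 0.70, 0.41 and 0.31 with TGFb and 1.5, 1.39 and 1.37 in untreated cells, with no overlap. It fell by 0.88 ± 0.15 (SE, adjusted p = 0.0249) in the scan-day fit, and did not pass in the group-only fit (-0.94 ± 0.25, adjusted p = 0.194). Ccl11 (eotaxin), a CCR3 ligand that attracts eosinophils, had levels of -4.72, -6.42 and -6.06 with TGFb, where it was above background on 1 array, and -3.79, -3.82 and -3.96 in untreated cells, where it was on all 3. It fell in the scan-day fit (-1.60 ± 0.34, adjusted p = 0.0463), close to the threshold, and did not pass in the group-only fit (-1.88 ± 0.48, adjusted p = 0.184). These differences rest on TGFb levels that were not above background on the other two arrays. The group-only difference was -0.67 after normexp background correction and -0.88 in the authors' deposited table, and the scan-day difference was -0.91 without untreated replicate 3. In scan-day fits with 1 array left out, Ccl11 did not pass without TGFb replicate 2 or 3 or without any 1 of the untreated replicates, and Ccl5 passed only without TGFb replicate 3. The other CCR3 ligands, Ccl24 and Ccl26, were on no array.

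The CC genes of chromosome 11 lie in 2 groups. The first spans 140 kb and holds Ccl2, Ccl7, Ccl11, Ccl12, Ccl8 and Ccl1, of which 3 were tested and Ccl11 fell in the scan-day fit. In that fit 5.58% of all genes tested fell. Ccl2 and Ccl7 did not pass, and Ccl7, which like Ccl11 lies within 25.4 kb of Ccl2, was at -0.30 ± 0.39 (SE, adjusted p = 0.676) there. Differences between these genes were not tested. The second spans 139 kb and holds Ccl5, Ccl9, Ccl6, Ccl3 and Ccl4, of which Ccl5 alone was tested. Of 8 other tested genes in it or within 250 kb, 0 passed in either limma fit (1 had an unadjusted p under 0.05 in the group-only fit and 2 in the scan-day fit).

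**Figure D4:**
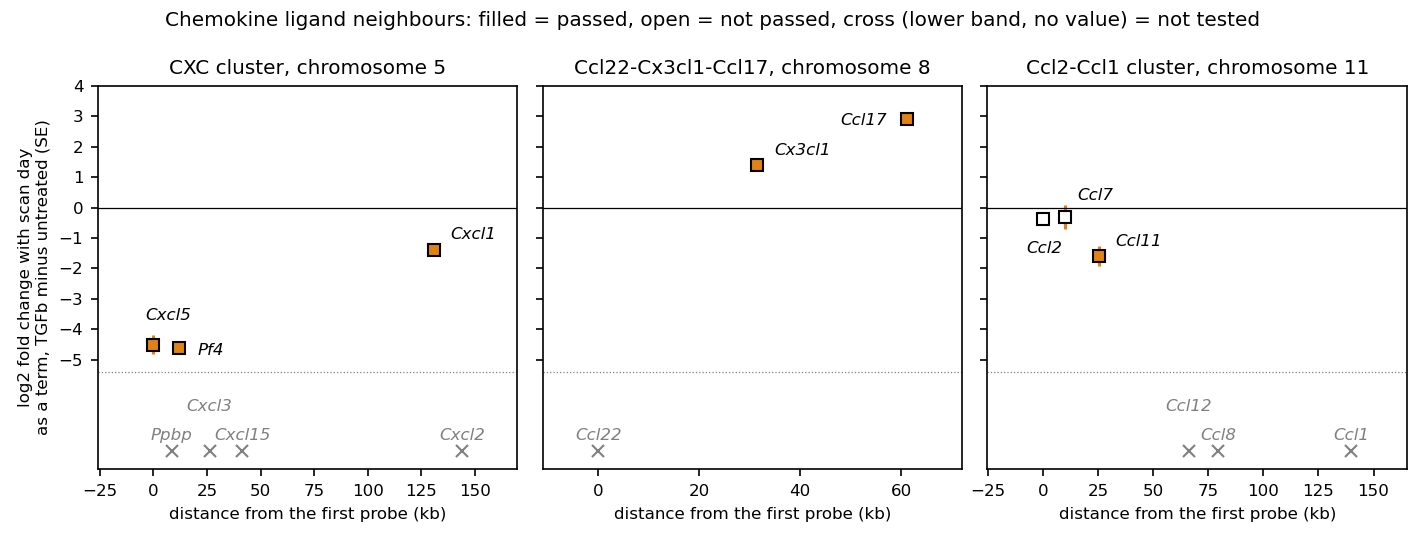
Log2 fold change (TGFb minus untreated, scan-day fit, bars show SE) against the distance in kb from the first probe of 3 chemokine clusters. Filled symbols passed an adjusted p of 0.05, open symbols did not, and grey crosses in the band below the dotted line mark members that were not tested and carry no value. The tested members of these clusters lie below 0 on chromosomes 5 and 11 and above 0 on chromosome 8. On chromosome 11 only Ccl11 passed. The Cxcl9 to Cxcl11 cluster, also on chromosome 5, is not shown.

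The ligands of other CC receptors did not pass in either fit. Ccl19, the Ccr7 ligand that guides T cells and dendritic cells to lymph nodes, had levels of -3.60, -3.71 and -4.34 with TGFb and -3.48, -3.14 and -2.88 in untreated cells. The groups did not overlap, by a narrow margin, and the fold change was -0.71 ± 0.33 (SE, adjusted p = 0.494). A dimmer Ccl19 probe, above background on 1 TGFb array and 2 untreated arrays, overlapped between groups and was at -0.46 ± 1.25. In the scan-day fit it was at 0.59 ± 0.34, opposite in sign to the first probe (-0.71 ± 0.30), and neither probe passed. Ccl25, which directs T cells to thymus and gut, had a fold change of 0.54 ± 0.38 (adjusted p = 0.683). Its levels were 1.31, 2.03 and 2.10 with TGFb and 1.22, 0.84 and 1.77 in untreated cells. Ccl28, an epithelial chemokine, had levels of -3.72, -3.59 and -4.60 with TGFb and -4.54, -4.51 and -3.67 in untreated cells, a fold change of 0.27 ± 0.41 (adjusted p = 0.821). Ccl27a, a skin chemokine, had levels of 1.71, 3.20 and 3.00 with TGFb and 1.62, 1.60 and 2.95 in untreated cells. Those levels followed the scan day rather than the treatment, and the difference was 0.10 on day 1 and 0.14 on day 2. Its 3 probes gave 0.58, 0.19 and -0.41 in the group-only fit, none of which passed.

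Receptors for these ligands were mostly not detected. Of 18 chemokine receptor genes on the array, 11 were well above background on no array, among them Cxcr2, Cx3cr1 and Ccr4, the receptors of Cxcl5, Cx3cl1 and Ccl17. Ccr7, Ccr8, Cxcr4 and Cxcr6 were tested and 0 passed in either limma fit, with 0 at an unadjusted p under 0.05 in the group-only fit and 1 in the scan-day fit. Cxcr4, the receptor of Cxcl12, had levels of -0.24, -0.52 and -0.04 with TGFb and -0.25, -0.15 and -0.52 in untreated cells, a fold change of 0.04 ± 0.27 (SE, adjusted p = 0.96). Cxcr6, the receptor of Cxcl16, was at 0.97 ± 0.46 (adjusted p = 0.518). Of the 5 atypical receptors and relatives, which bind chemokines without the usual signalling, Ackr3 rose. Among all genes tested, 0.682% rose in the group-only fit and 4.59% in the scan-day fit. Ackr3 takes up Cxcl12, and its levels were 3.11, 3.39 and 3.20 with TGFb and 1.47, 1.5 and 1.65 in untreated cells. Its fold change was 1.70 ± 0.24 (SE, adjusted p = 0.0369), and 1.64 ± 0.14 (adjusted p = 0.00405) in the scan-day fit. Ackr2, a decoy for inflammatory CC chemokines, was above background on 3 untreated arrays and 0 TGFb arrays. From processed signal, Ackr2 was at least 1.83-fold lower with TGFb, but its fitted difference did not pass (adjusted p = 0.229).

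Genes that share NF-kB or inflammatory control with many chemokines formed a list of 24 on the array. Of these, 18 were tested, 1 rose and 0 fell in the group-only fit, and 5 rose and 0 fell in the scan-day fit. Among all genes tested, 0.682% rose and 0.677% fell in the group-only fit, and 4.59% rose and 5.58% fell in the scan-day fit. Il6, an inflammatory cytokine that myoblasts are known to secrete, had levels of 0.68, 1.55 and 1.35 with TGFb and -2.21, -2.21 and -1.43 in untreated cells. It rose by 3.15 ± 0.38 (SE, adjusted p = 0.023). Ptgs2, the inducible prostaglandin synthase, rose by 2.92 ± 0.14 (adjusted p = 0.00158) and Lif, a cytokine of the Il6 family, by 2.21 ± 0.17 (adjusted p = 0.00323) in the scan-day fit, as did the NF-kB regulators Nfkbie (1.06 ± 0.22, adjusted p = 0.0447) and Nfkbiz (1.31 ± 0.16, adjusted p = 0.00919). Nfkbia, a feedback inhibitor that NF-kB induces, was at 0.11 ± 0.23 (adjusted p = 0.863). Of 7 tested genes whose products cleave chemokines or present them on cell-surface heparan sulphate, 0 passed in limma's group-only fit (1 had an unadjusted p under 0.05), and Sdc1 (0.87 ± 0.18, adjusted p = 0.043) and Ext1 (0.82 ± 0.14, adjusted p = 0.0272) rose in the scan-day fit. Sdc1 is a heparan sulphate proteoglycan and Ext1 a heparan sulphate polymerase.

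The labelled cell type was checked against its markers. Of 9 myoblast markers, 8 were on all 6 arrays, among them Pax7, Myod1 and Myog, while Myf5 was on 1 untreated array. Des, a muscle intermediate filament, fell by 1.28 ± 0.16 (SE, adjusted p = 0.00998) and Ncam1, an adhesion molecule, rose by 1.28 ± 0.16 (adjusted p = 0.0107) in the scan-day fit. Markers of cells that are known chemokine sources were examined beside the ligands. Of 12 macrophage markers, Cd68, Lyz2 and C1qa were on no array, while Csf1r, Itgam, Cd14 and Fcer1g were on all 6. The summed linear level of the 12 was 16.5 to 117 on TGFb arrays, against 16.7 to 66.5 on untreated arrays. The high values were on day 2 in both groups, and most of each sum came from the Itgam probe. Its levels were 3.96, 6.65 and 6.85 with TGFb and 3.95, 3.97 and 6.03 in untreated cells. Of 5 neutrophil markers, S100a8, S100a9 and Ngp were on no array, while Elane was on all 6. Their sum was 0.0326 to 47.8 on TGFb arrays, against 0.0192 to 0.725 on untreated arrays, and its upper end came from the Elane probe, whose spots were dropped as outliers on TGFb replicate 2 and untreated replicate 3. Of 6 endothelial markers, Tek, Tie1 and Emcn were on no array, while Pecam1 and Kdr were on all 6 (sums 0.429 to 2.93 with TGFb, against 0.33 to 3.16 untreated). Of 6 T cell markers, Cd3d, Cd2 and Cd8a were on no array, while Cd3e and Cd4 were on all 6 (sums 0.671 to 11.3, against 0.975 to 2.0). Of 8 fibroblast markers, Dpt was on no array, while Pdgfra, Ly6a, Cd34 and Pi16 were on all 6. The fibroblast sums were 2.76 to 5.2 with TGFb, against 2.12 to 3.58 untreated. No marker of these other cell types passed in limma's group-only fit, where the fibroblast and T cell lists each had 1 at an unadjusted p under 0.05. Dcn, a matrix proteoglycan, fell by 2.57 ± 0.37 (SE, adjusted p = 0.0163) in the scan-day fit. The part of other cells in the chemokine differences was otherwise not tested.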

How the data were processed

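RNA from TGFb-treated and untreated myoblasts (3 arrays each) was hybridised to 1-colour Agilent arrays with the dye Cy3. The authors deposited 1 scanner file per array with the intensity of each spot, extracted with Agilent Feature Extraction 10.7.3.1 per the file headers, which subtracts background and gives dim spots substitute values. The authors also deposited a table of normalized log2 values (column medians 6.99 to 7.00, each column correlating best with its own array, r of 0.992 to 0.993 across probes). Its scale and direction follow the scanner signal, but how it was normalized is not stated there.

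Control spots were dropped, as were outlier spots (176 to 365 on an array). Log2 processed intensity was taken relative to each array's 75th percentile, and spots of a probe were averaged. Probes well above background on at least 3 of 6 arrays were kept, and a gene was its brightest such probe over all 6 arrays (21999 genes). The fits used limma 3.58.1 under R 4.3.3 (lmFit, eBayes), with group alone and with scan day added, and Benjamini-Hochberg adjustment over all genes. A gene not well above background on any array of 1 group has a lower bound. In it each dim array enters at its own signal or at its lowest well-above-background signal, whichever was higher. Gene names were updated through RefSeq accessions (26300 of 55681 probes matched, 2839 renamed, none of them a chemokine ligand). Promoters come from RefSeq (GRCm38.p6), probe positions from the array annotation (mm9). The fits were tested on simulated data.

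The chemokine ligands, the other gene lists and the marker lists were chosen with earlier results of these data known. Each tested ligand is named, and of the other lists mainly genes that passed in either fit. Counts and medians describe a list and test nothing about it. A gene fixed as a check of the TGFb response is not reported here. Same-numbered replicates deviated together for numbers 1 and 3 (correlations of 0.808 and 0.691) and oppositely for number 2 (-0.716). The arrays of number 1 shared a scan day, as did those of number 3, while those of number 2 did not. Because scan day separates the arrays, these correlations cannot show whether the numbers pair the samples. The labels state no pairing. Arrays give no counting error, and 3 per group limit the precision.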

Additional observations from a re-analysis of the deposited data

How the results depend on the processing

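The count of chemokine ligands that passed was 4 as reported and stayed between 3 and 5 with slide as a block, normexp background correction, quantile normalization, the percentile over detected probes, no filter on dim probes, detection on all 6 arrays, outlier spots kept, the mean of a gene's probes and, chosen after the data were seen, every probe tested on its own. It was 10 with scan day as a term, 10 in the authors' deposited table and 0 with replicate number as a block. Whether these numbers pair the samples is not known. The sets of 10 were not the same: in the authors' table Cxcl10 passed (-1.53, adjusted p = 0.0312) and Ccl11 did not (adjusted p = 0.0796). Over all genes the count was 299 as reported, 2238 with scan day, 769 with slide as a block, 3250 in the authors' table and 2 with the replicate block. Leaving out 1 array gave 0 to 3 ligands and 0 to 192 genes without scan day, and 4 to 10 ligands and 328 to 3316 genes with it. With untreated replicates 1 and 2 averaged, also chosen then, 0 ligands and 0 genes passed without scan day, and 7 and 649 with it. At an unadjusted p under 0.05, 7 to 12 ligands were counted under these settings. Of 472 values of single ligands under the alternatives, 397 kept their direction and their side of the threshold, 31 lost a call, 38 gained one and 6 changed sign. The sign changes were in ligands that never passed in the fits reported: Ccl7 was at 0.0092 with slide as a block and, with scan day, at 0.025 without TGFb replicate 3 and 0.021 without untreated replicate 3. Cxcl13 was at -0.23 without TGFb replicate 1 and -0.021 without untreated replicate 3, and Ccl28 at -0.43 without TGFb replicate 1 with scan day. Over all fits with 1 array left out, Ccl7 ranged from -0.84 to 0.025, Cxcl13 from -0.23 to 0.82 and Ccl28 from -0.43 to 0.81. For these changes the cause was not tested. Cxcl14, Pf4 and Ccl11 were not above background on at least 2 arrays of 1 group, which limits their values.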
